A study of Mus musculus with 8 samples.

Results

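The nuclear receptors other than the Nr2f family, together with the Ncoa and Ncor coregulators, were followed in the uterus of mice without Nr2f2 in Pgr-expressing cells. The members were the 50 rows of the deposited table whose gene symbol is on a list of 43 receptors and 7 coregulators, and all 50 were found among the 24963 genes listed. RNA-seq was performed on whole uterus at gestation day (GD) 3.5 from 4 Nr2f2 f/f samples, the controls, and 4 Nr2f2 d/d samples. Both groups carry the floxed Nr2f2 alleles, and the Nr2f2 d/d mice also carry a Cre recombinase knocked into 1 allele of Pgr (Pgr Cre/+). The labels give the strain as C57B6/J and the age at mating as 8 weeks, and per the study's methods the males were vasectomized, so that the uteri held no embryos. Because the Cre allele is present only in Nr2f2 d/d, an effect of that allele, which disrupts 1 copy of Pgr, and an effect of Nr2f2 loss cannot be told apart. This holds for every gene compared here, Pgr itself included. The labels number the samples within each group without stating that each is a separate mouse, so p-values measure the spread between these samples.

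Nuclear receptors are transcription factors that bind DNA through a conserved pair of zinc fingers and, in many cases, are switched by a small lipid-soluble ligand. Steroid receptors bind as homodimers to palindromic elements, many of the other receptors pair with an RXR on repeats of AGGTCA, and orphan receptors such as NR5A2 can bind an extended single copy as monomers. Ligand-bound receptors recruit coactivators of the NCOA family, whereas unliganded thyroid hormone and retinoic acid receptors hold the corepressor NCOR1. In the uterus before implantation, ESR1 mediates the growth response to estradiol and PGR mediates the opposing action of progesterone, through stromal signals that include NR2F2.

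Values are FPKM, that is fragment numbers divided by gene length and by the library total, so that levels of different genes can be set side by side. The library totals recovered from short genes were 61400000 to 92750000 fragments. Nr2f2 itself was at 21.8 to 25.7 FPKM in Nr2f2 f/f and 6.90 to 9.74 in Nr2f2 d/d, which matches the labels. Stromal, epithelial and smooth muscle markers were present in all libraries, while of 9 ovary markers 2, Fshr and Oog1, were listed at 0 in all 8 and the sum was 6.29 to 8.14 FPKM, most of it from Star and Inha. The oviduct markers summed to 30.0 to 60.6 FPKM in Nr2f2 f/f and 21.4 to 86.2 in Nr2f2 d/d, mainly from Pax8 (13.6 to 41.8 FPKM) and Ovgp1 (2.41 to 53.7). Of 8 endothelial markers, 4 fell in Nr2f2 d/d at an adjusted p under 0.05 (limma), and their sum was 207 to 297 FPKM in Nr2f2 f/f and 134 to 164 in Nr2f2 d/d. With 1 library left out 0 to 4 of them passed, 2 without control replicate 2 or Nr2f2 d/d replicate 4, 1 without control replicate 4, and 0 without control replicate 1 or Nr2f2 d/d replicate 1 or 2. The summed markers were higher in Nr2f2 d/d for epithelium (803 to 867 against 1047 to 1148 FPKM), stroma (1464 to 1749 against 2104 to 3754) and mesothelium (131 to 168 against 213 to 306), and no marker of these lists was at 0. Of the 10 stromal markers, however, 6 had log2 fold changes below 0 (median -0.13): the matrix genes Dcn and Col1a2 passed as higher, and the transcription factor Hand2 as lower, with 0 to 4 calls when 1 library was left out. Of the 10 epithelial markers, 9 were above 0 (median 0.26) and 1 passed. Epcam, Krt18, Cldn3 and Cldn4 were at -0.05 to 0.06 with 0.1 added to FPKM and no filter on low values. Of the 6 mesothelial markers, 5 were above 0 (median 0.56) and 1 passed, which when 1 library was left out held only without control replicate 3. The keratin Krt19 is on both of these lists, so their sums are not independent. Summed gland markers were at 150 to 3291 FPKM in Nr2f2 f/f and 33.9 to 90.4 in Nr2f2 d/d, with 6 of 7 below 0, a median log2 fold change of -1.03 (-1.43 without control replicate 2) and 1 call, Spink1, which held only without control replicate 2 or Nr2f2 d/d replicate 4 when 1 library was left out. The part of these shifts in the values of the receptors was not tested. In bulk tissue, fewer cells of a type and less RNA per cell cannot be told apart. The control Nr2f2 f/f replicate 2 stood apart: its correlations with the other controls were 0.933 to 0.959, and its summed gland markers reached 3291 FPKM against 150 to 609 in the other controls. It was the highest or the lowest of the 8 libraries for 17 of the 35 members that were tested, and Nr2f2 d/d replicate 3, with correlations of 0.942 to 0.976 within its group, was so for 16.

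Stretches of the promoters of Nr0b1, Nr5a2 and Nr2c2 are shown because these were the receptors with the lowest levels in Nr2f2 d/d relative to Nr2f2 f/f among those whose groups did not overlap. Each is the 250 bases before a RefSeq transcript start on build GRCm38.p6, read on the strand of the gene, with copies of AGGTCA in capitals.
Nr0b1, chrX:86191525-86191774, plus strand: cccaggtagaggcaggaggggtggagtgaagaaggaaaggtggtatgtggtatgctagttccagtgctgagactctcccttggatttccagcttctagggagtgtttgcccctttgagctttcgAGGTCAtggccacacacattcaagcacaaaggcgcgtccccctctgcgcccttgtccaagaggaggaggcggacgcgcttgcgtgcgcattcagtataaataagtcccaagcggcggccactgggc
Nr5a2, chr1:136960449-136960698, minus strand: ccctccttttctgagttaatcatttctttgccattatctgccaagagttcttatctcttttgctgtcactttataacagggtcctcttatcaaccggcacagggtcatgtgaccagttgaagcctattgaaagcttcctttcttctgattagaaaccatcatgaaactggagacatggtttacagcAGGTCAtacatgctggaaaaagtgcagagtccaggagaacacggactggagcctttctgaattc
Nr2c2, chr6:92092183-92092432, plus strand: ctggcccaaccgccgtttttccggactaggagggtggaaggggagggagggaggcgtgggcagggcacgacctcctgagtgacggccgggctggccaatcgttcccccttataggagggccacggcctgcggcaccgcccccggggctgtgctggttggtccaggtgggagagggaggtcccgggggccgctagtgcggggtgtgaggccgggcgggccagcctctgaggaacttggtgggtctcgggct
The match in Nr0b1 began at position -126 relative to the start and that in Nr5a2 at -64, while the Nr2c2 stretch held no match on either strand. RefSeq lists a second start of Nr5a2, whose window held none. Windows from 250 bases before to 50 after a start were searched on both strands for AGGTCA, the core element of many nuclear receptors including NR2F2. It was found in 16.3% of 32851 windows of all genes and in 14 of 67 windows of the members (20.9%). By gene, 13 of the 44 members with a window (29.5%) and 18.1% of all genes had a match. These members were Nr0b1, Nr1d2, Nr1h4, Nr5a2, Nr6a1, Ncoa4, Ncoa6, Pparg, Rara, Rarg, Rxra, Rxrg and Thrb. The direct repeat AGGTCANAGGTCA, which contains the shorter motif, was in 0 of the 67 windows and in 0.0396% of all windows. Ncoa2, Ncoa3, Nr5a1, Nr3c1, Thra and Hnf4g had no window. A match is a description of the letters, and binding was not measured here.

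The question was which other nuclear receptors and coregulators differed in mRNA level when Nr2f2 was lost. Of the 50 members, 35 had a mean of at least 0.5 FPKM and were tested, 14 were lower but above 0 in a library, and Nr2e1 was at 0 throughout. None of the 35 passed an adjusted p of 0.05 (limma, Benjamini-Hochberg over 14323 genes), against 2.62% of all genes tested (1.09% higher and 1.53% lower), and the smallest adjusted p was 0.0737, for Nr2c2. At an unadjusted p under 0.05 there were 6 members, Nr2c2, Nr5a2, Ncoa1, Esr1, Rara and Ncoa5, or 17.1% against 21.2% of all genes. The threshold of the study methods, an unadjusted p under 0.05 with a fold change of at least 1.4, was met by Nr5a2, 1 of 35 (2.86%, against 8.80% of all genes, 4.70% higher and 4.10% lower). The 4 values of Nr2f2 d/d lay wholly below the 4 of Nr2f2 f/f for Nr2c2, Nr5a2, Ncoa1, Ncoa5 and Rxrb, 5 of 35 (14.3%), against 9.91% of all genes in that direction and 15.4% in either. No tested member had all its Nr2f2 d/d values above the controls, against 5.49% of all genes. This depended on the scaling: with median-ratio scaling Esr1 and Rara, and with quantile normalization Rara, were wholly higher, and Rxrb overlapped in both. Over all genes, median-ratio scaling moved the separated genes from 787 higher and 1419 lower to 988 and 1170, and the adjusted calls from 156 and 219 to 191 and 185. Among the 14 low members, Nr0b1 was wholly lower and Hnf4g and Rxrg wholly higher in Nr2f2 d/d, or 21.4% against 7.38% of 6747 such genes.

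The fold changes are given as log2 of Nr2f2 d/d over Nr2f2 f/f on FPKM + 0.5, a scale that understates changes of low genes. Among the 35 tested members they ranged from -0.58 for Nr1h3 to 0.48 for Pgr and Nr0b2, and for the untested Nr0b1 the difference on this scale was -0.92. The median was -0.10, against -0.02 over all genes tested, with 23 members below 0 and 12 above (65.7% below, against 53.3% of all genes). It was -0.12 to -0.06 with 1 library left out and -0.05 over 49 members with no filter. The median coefficient of variation of FPKM between libraries of a group was 12.7% among the controls and 11.9% in Nr2f2 d/d.

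**Figure D1:**
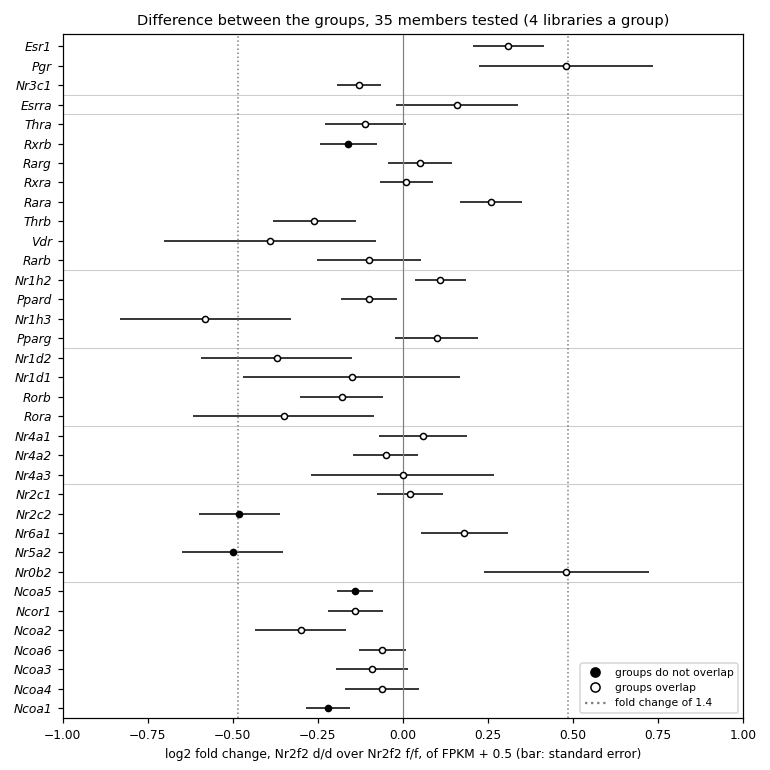
Log2 fold change of FPKM + 0.5, Nr2f2 d/d over Nr2f2 f/f, with its standard error for the 35 members tested, ordered by class (horizontal lines) and by level. Filled points mark the 5 members whose groups did not overlap, all of them below 0, and dotted lines mark a fold change of 1.4.

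The levels spanned the range from 0 to almost 50 FPKM. Of the 50 members, 31 had a mean of at least 1 FPKM and 11 of at least 10 FPKM. These 11 were, in order of mean FPKM over the 8 libraries, Esr1 (37.7), Nr1h2 (35.3), Pgr (22.8), Thra (20.8), Ncoa5 (19.9), Esrra (18.5), Rxrb (17.9), Rarg (15.3), Ncor1 (14.5), Nr1d2 (11.6) and Rxra (11.4). Esr1 and Nr1h2 overlapped in both groups, and so did Pgr and Thra as well as Thra and Ncoa5, so that the order within these pairs is not resolved by the spread of the libraries. Pgr and Ncoa5 overlapped in Nr2f2 f/f, and Pgr was the higher in all 4 libraries of Nr2f2 d/d. By mean, Esrra was under Ncoa5 and Rxrb in Nr2f2 f/f (17.7, 20.9 and 19.0 FPKM). In Nr2f2 d/d it was above both (19.4, 18.9 and 16.8). Nr1d2 was above Rxra in Nr2f2 f/f (13.3 and 11.4) and under it in Nr2f2 d/d (9.85 and 11.5). The order of the 11 is therefore that of the pooled means only. At the other end, 9 members were above 0 but under 0.1 FPKM on average, among them receptors of liver, intestine, retina and steroidogenic glands.

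**Figure D2:**
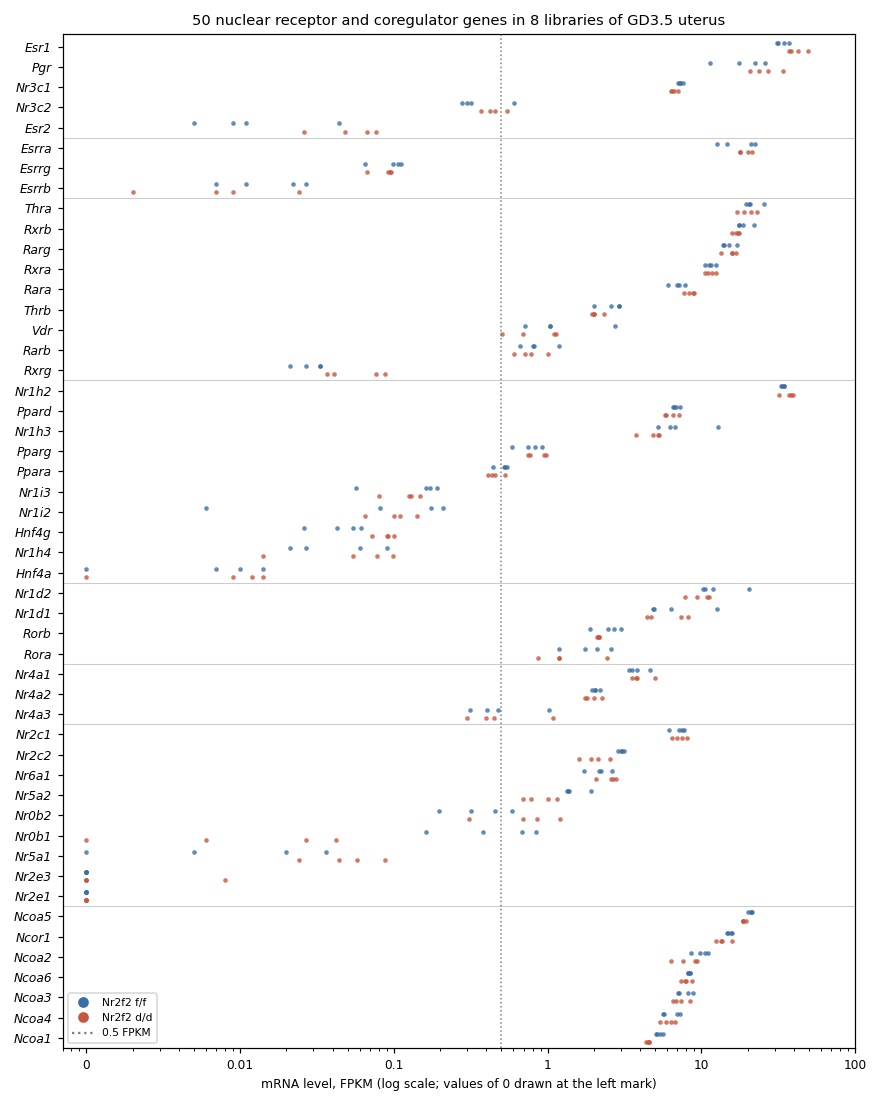
FPKM of the 50 members in the 4 Nr2f2 f/f (blue) and 4 Nr2f2 d/d (red) libraries on a log axis, grouped by class, with values of 0 drawn at the left mark. The 2 groups overlap for most members, and the clearest gap is that of Nr0b1, at 0.163 to 0.837 FPKM in Nr2f2 f/f and 0 to 0.0420 in Nr2f2 d/d.

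Among the steroid hormone receptors, Esr1 and Pgr were the most abundant and both had higher means in Nr2f2 d/d. Esr1, the main estrogen receptor of the uterus, was at 31.4, 37.2, 34.6 and 31.1 FPKM in Nr2f2 f/f replicates 1 to 4, and at 42.7, 38.3, 49.2 and 37.2 FPKM in Nr2f2 d/d replicates 1 to 4. In Nr2f2 d/d, 3 of 4 libraries lay above every control, and the lowest was level with the highest control. The means were 33.5 ± 2.91 and 41.8 ± 5.42 FPKM (SD, n = 4 each), with a log2 fold change of 0.31 (SE 0.105), which did not pass the threshold (limma, adjusted p = 0.151; exact permutation p = 0.0571, two-sided). The smallest p that the 70 arrangements of the libraries allow is 0.0286. With 1 library left out at a time the log2 fold change of Esr1 was 0.23 to 0.36.

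Pgr, the progesterone receptor, was at 17.5, 11.4, 26.0 and 22.2 FPKM in Nr2f2 f/f and 33.9, 27.1, 23.8 and 20.7 FPKM in Nr2f2 d/d. The groups overlapped, with 2 Nr2f2 d/d libraries above every control and the lowest value in control replicate 2. The means were 19.3 ± 6.30 and 26.4 ± 5.67 FPKM (SD, n = 4 each), with a log2 fold change of 0.48 (SE 0.255; limma adjusted p = 0.318). Without control replicate 2 it was 0.26. The ratio of Esr1 to Pgr within a library, as log2 of the FPKM, was 0.84 ± 0.58 in the controls and 0.67 ± 0.32 in Nr2f2 d/d (SD, n = 4 each; exact permutation p = 0.714, two-sided, adjusted over 4 pairs 0.714). That difference of -0.17 turned to 0.10 without control replicate 2.

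Esr2, the second estrogen receptor, was almost absent from the tissue. It was at 0.00900, 0.00500, 0.0110 and 0.0440 FPKM in Nr2f2 f/f and 0.0480, 0.0670, 0.0770 and 0.0260 FPKM in Nr2f2 d/d, about 1.0 to 9.1 and 8.0 to 24.1 fragments a library. Its means of 0.0172 ± 0.0180 and 0.0545 ± 0.0225 FPKM (SD, n = 4 each) overlapped by 1 library and lay below the level at which genes were tested (exact permutation p = 0.0571, two-sided). Nr3c1, the glucocorticoid receptor, was at 7.01 to 7.61 FPKM in Nr2f2 f/f and 6.31 to 7.03 in Nr2f2 d/d, and 3 of the 4 Nr2f2 d/d libraries lay below every control (log2 fold change -0.13, limma adjusted p = 0.288). Nr3c2, the mineralocorticoid receptor, was at 0.276 to 0.608 and 0.368 to 0.546 FPKM, under the level at which genes were tested, and the groups overlapped.

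None of the receptor chaperones or glucocorticoid receptor targets passed the adjusted threshold (limma). Of 11 chaperone genes of the receptor complexes, 0 passed the adjusted threshold and 4 had log2 fold changes above 0 (median -0.06, and -0.16 to 0.03 with 1 library left out). The 3 with the smallest p were Ppid, a cyclophilin of the complex, at 52.8 ± 4.07 and 46.2 ± 4.68 FPKM in Nr2f2 f/f and Nr2f2 d/d, Hsp90ab1, the constitutive HSP90, at 660 ± 25.9 and 588 ± 60.4 FPKM, and Fkbp4, the immunophilin needed for PGR activity, at 131 ± 7.03 and 153 ± 25.5 FPKM (SD, n = 4 each). Of 12 glucocorticoid receptor targets, 0 passed the adjusted threshold, with 6 above and 6 below 0 (median -0.02), and 1, Zbtb16, was lower at the study threshold. The paper also reports Zbtb16 as lower in Nr2f2 d/d. The median was -0.22 to 0.08 with 1 library left out. Their smallest p were those of Zbtb16, a zinc finger repressor (9.65 ± 2.87 and 5.28 ± 1.61 FPKM), Klf9, a Kruppel-like factor that progesterone also controls (21.1 ± 4.44 and 15.6 ± 1.21 FPKM), and the cell cycle inhibitor Cdkn1a (6.12 ± 4.71 and 22.5 ± 25.5 FPKM), whose Nr2f2 d/d mean rested on replicate 3 at 60.0 FPKM.

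The estrogen-related receptors are orphans that drive mitochondrial genes, and Esrra alone was expressed at a level that could be tested. It was at 14.8, 12.7, 21.0 and 22.3 FPKM in Nr2f2 f/f and 17.8, 20.2, 17.9 and 21.5 FPKM in Nr2f2 d/d. All 4 Nr2f2 d/d libraries lay within the range of the controls (log2 fold change 0.16, limma adjusted p = 0.644, and 0.02 without control replicate 2). Esrrg was at 0.0650 to 0.112 FPKM over the 8 libraries and Esrrb at 0.00200 to 0.0270. Of 12 ERR targets measured, 0 passed the adjusted threshold (median 0.07, and -0.00 without control replicate 2), and the smallest p was that of Sdhb, a subunit of succinate dehydrogenase, at 60.7 ± 6.36 and 71.4 ± 4.20 FPKM (SD, n = 4 each). It was followed by Cycs, cytochrome c, at 11.4 ± 2.81 and 14.7 ± 2.83 FPKM, and Perm1, a regulator of muscle mitochondria, at 1.79 ± 1.00 and 1.07 ± 0.0664 FPKM.

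Thra, the more abundant of the 2 thyroid hormone receptors, was at 20.6, 25.6, 19.5 and 20.5 FPKM in Nr2f2 f/f and 18.9, 21.0, 17.1 and 23.1 FPKM in Nr2f2 d/d, with overlapping groups (log2 fold change -0.11, and -0.02 without control replicate 2; limma adjusted p = 0.640). Its last exons overlap those of Nr1d1 on the opposite strand (5.70% of the exon bases of Thra and 8.55% of those of Nr1d1), and reads of the library kit carry no strand. Thrb was at 2.00, 2.93, 2.91 and 2.58 FPKM and at 2.33, 1.95, 2.01 and 1.99 FPKM (log2 fold change -0.26, adjusted p = 0.262). All 4 Nr2f2 d/d libraries lay below 3 of the 4 controls, and control replicate 1 lay among them.

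Among the genes that supply, remove or answer to thyroid hormone, Dio3 rose in Nr2f2 d/d. Of 8 thyroid hormone receptor targets and transporters tested, 1 passed the adjusted threshold, and the list median was 0.44. Dio3, the deiodinase that inactivates the hormone, was at 0.152, 0.548, 0.172 and 0.226 FPKM in Nr2f2 f/f and 1.89, 2.63, 2.42 and 1.72 FPKM in Nr2f2 d/d. All 4 Nr2f2 d/d libraries lay above every control, with a log2 fold change of 1.79 (SE 0.188; limma adjusted p = 0.00788), and it was called in each of the 8 fits that left out 1 library. The controls of Dio3 averaged under 0.5 FPKM, so it reached the level at which genes were tested only through its Nr2f2 d/d values. Dio2, the deiodinase that activates the hormone, was at 26.8 ± 12.0 and 155 ± 96.6 FPKM (SD, n = 4 each; log2 fold change 2.37, limma adjusted p = 0.0537). Its values were wholly higher in Nr2f2 d/d, but it passed only without Nr2f2 d/d replicate 4 (adjusted p = 0.0272), where 3 genes of the list did.

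None of the retinoic acid receptors and RXR partners passed the test (limma), and of those tested on this scale Rara had the log2 fold change farthest from 0. Rara was at 7.14, 6.10, 7.83 and 6.94 FPKM in Nr2f2 f/f and 8.89, 7.66, 8.35 and 8.97 FPKM in Nr2f2 d/d, where 3 of 4 libraries lay above every control (log2 fold change 0.26, SE 0.0914; limma adjusted p = 0.165). Rarg was at 13.5 to 17.1 FPKM over the 8 libraries, with a log2 fold change of 0.05. Rarb, itself a target of retinoic acid, was at 0.606 to 1.19 FPKM with a log2 fold change of -0.10, and 38.4% of its exon bases overlap Top2b and a second gene on the opposite strand, so its level is uncertain.

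RXRB, which pairs with many of the other receptors, was encoded by the RXR gene with the higher level. Rxrb was at 18.8, 21.9, 17.6 and 17.5 FPKM in Nr2f2 f/f and 17.5, 17.4, 15.8 and 16.7 FPKM in Nr2f2 d/d. The groups did not overlap, but replicate 4 of Nr2f2 f/f and replicate 1 of Nr2f2 d/d were level at 17.5. Means of 19.0 ± 2.06 and 16.8 ± 0.761 FPKM (SD, n = 4 each) gave a log2 fold change of -0.16 (SE 0.0848; limma adjusted p = 0.311), and -0.09 without control replicate 2. Rxra was at 10.5 to 12.4 FPKM in both groups, with a log2 fold change of 0.01. The log2 ratio of Rxra to Rxrb was -0.70 ± 0.20 and -0.54 ± 0.07 (SD, n = 4 each; exact permutation p = 0.200, adjusted over 4 pairs 0.400). Rxrg was under 0.1 FPKM, at 0.0210 to 0.0330 in Nr2f2 f/f and 0.0370 to 0.0870 in Nr2f2 d/d, or 3.0 to 5.9 and 5.8 to 18.5 fragments. Its groups did not overlap in FPKM, which in itself fixes the exact permutation p at 0.0286, two-sided. Fitted without the filter on low values, it had an adjusted p of 0.223 in limma.

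Of 10 retinoic acid receptor targets tested, 0 passed the adjusted threshold and the median was 0.19, and -0.05 to 0.25 with 1 library left out. Without control replicate 2, 11 were tested, the median turned to -0.05 and Cyp26b1 passed (adjusted p = 0.0342), and without Nr2f2 d/d replicate 4 Crabp2 passed (adjusted p = 0.0244). The 3 with the smallest p were all wholly above the controls in Nr2f2 d/d. Crabp2, which carries retinoic acid to its receptors, was at 0.369, 0.271, 0.527 and 0.235 FPKM in Nr2f2 f/f and 18.0, 3.83, 21.2 and 0.710 FPKM in Nr2f2 d/d (log2 fold change 3.00, SE 0.845; limma adjusted p = 0.0998), so that the Nr2f2 d/d libraries differed widely among themselves. Like Dio3, it reached the level at which genes were tested only through Nr2f2 d/d. Cyp26b1, which degrades retinoic acid, was at 1.07 ± 0.768 and 3.45 ± 1.29 FPKM (adjusted p = 0.0761), and Rarres2, which encodes chemerin, at 64.2 ± 2.93 and 88.4 ± 12.6 FPKM (adjusted p = 0.0642; SD, n = 4 each). For Rarres2, 33.6% of the exon bases overlap Lrrc61 on the opposite strand.

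Vdr, the vitamin D receptor, was at 1.03, 2.73, 1.04 and 0.709 FPKM in Nr2f2 f/f and 0.692, 0.505, 1.13 and 1.10 FPKM in Nr2f2 d/d. The groups overlapped and the highest value was that of control replicate 2, without which the log2 fold change of -0.39 became -0.09. Of 4 vitamin D receptor targets tested, 1 passed, and the median of 0.21 was -0.02 without control replicate 2 and 0.58 without Nr2f2 d/d replicate 3, the ends of its range with 1 library left out. Spp1, the secreted phosphoprotein osteopontin, was at 16.4, 48.3, 51.9 and 21.0 FPKM in Nr2f2 f/f and 105, 110, 193 and 191 FPKM in Nr2f2 d/d (log2 fold change 2.21, SE 0.413; limma adjusted p = 0.0371), and its call was kept only without control replicate 2 or 3 when 1 library was left out (adjusted p 0.0382 to 0.0950 over the 8 fits). The next were the calcium-binding S100g at 1144 ± 1001 and 446 ± 303 FPKM, with 2641 FPKM in control replicate 2, and Calb1 at 83.1 ± 73.8 and 149 ± 83.7 FPKM (SD, n = 4 each), and neither passed.

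**Figure D3:**
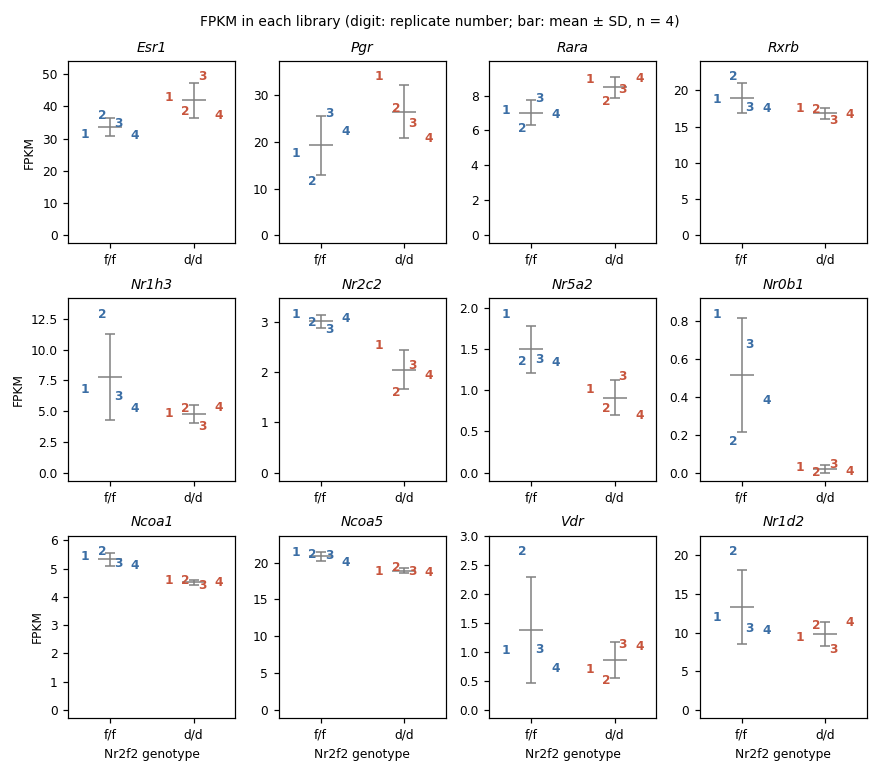
FPKM of 12 members in each library, with digits for the replicate number within Nr2f2 f/f (blue) and Nr2f2 d/d (red), and bars for the mean and SD of 4 libraries. Nr2c2, Nr5a2, Nr0b1, Ncoa1, Ncoa5 and Rxrb have no Nr2f2 d/d value above a control value, while control replicate 2 is the highest point for Vdr, Nr1h3 and Nr1d2.

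Of the lipid and sterol sensors, Nr1h2 (LXR beta), a receptor for oxysterols, was at 33.6, 34.7, 34.4 and 33.0 FPKM in Nr2f2 f/f and 38.2, 37.1, 32.1 and 39.5 FPKM in Nr2f2 d/d. Its values lay above every control in 3 Nr2f2 d/d libraries and below every control in replicate 3 (log2 fold change 0.11, limma adjusted p = 0.442). Nr1h3 (LXR alpha) was at 6.77, 12.9, 6.23 and 5.20 FPKM and at 4.83, 5.20, 3.77 and 5.29 FPKM, with a log2 fold change of -0.58 (SE 0.252; adjusted p = 0.238). Control replicate 2 was the highest, and without it the value was -0.32. The log2 ratio of Nr1h2 to Nr1h3 within a library was 2.14 ± 0.51 among the controls and 2.82 ± 0.09 in Nr2f2 d/d (SD, n = 4 each). The ratios did not overlap between the groups, and the difference of 0.68 had an exact permutation p of 0.0286, the smallest the design allows, and 0.114 after adjustment over the 4 pairs. It was 0.44 to 0.82 with 1 library left out.

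Of 10 LXR targets tested, 0 passed the adjusted threshold and the median was 0.23, and 0.13 to 0.27 with 1 library left out. Without control replicate 3 the desaturase Scd1 passed (limma adjusted p = 0.0370). Scd2, a stearoyl-CoA desaturase, was wholly higher in Nr2f2 d/d at 118 ± 19.2 and 162 ± 18.9 FPKM (log2 fold change 0.47, limma adjusted p = 0.110). It was followed by Scd1 at 7.69 ± 1.77 and 10.4 ± 0.545 FPKM and by Srebf1, the regulator of fatty acid synthesis, at 15.5 ± 0.940 and 17.6 ± 1.01 FPKM (SD, n = 4 each), and both overlapped between the groups.

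Ppard was the most abundant PPAR, at 6.59 to 7.28 FPKM in Nr2f2 f/f and 5.82 to 7.14 in Nr2f2 d/d (log2 fold change -0.10). Pparg was at 0.588 to 0.980 FPKM over the 8 libraries, with a log2 fold change of 0.10, and Ppara at 0.408 to 0.542, just under the level at which genes were tested. Of 13 PPAR targets tested, 1 passed. Lpl, the lipase that frees fatty acids from lipoproteins, was at 3.68, 4.78, 5.36 and 6.75 FPKM in Nr2f2 f/f and 14.2, 16.2, 27.9 and 11.2 FPKM in Nr2f2 d/d (log2 fold change 1.61, SE 0.277; limma adjusted p = 0.0289). Its call was kept only without Nr2f2 d/d replicate 3 or 4 when 1 library was left out (adjusted p 0.0279 to 0.0927). Cpt1a, which carries fatty acids into their oxidation in mitochondria, had a lower mean in Nr2f2 d/d, at 24.3 ± 5.65 and 16.2 ± 3.74 FPKM (SD, n = 4 each), and did not pass. The list median was -0.08, and -0.10 to -0.00 with 1 library left out.

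The bile acid and xenobiotic sensors and the HNF4 receptors, which are known from liver and intestine, were close to absent. Nr1i3 was at 0.0570 to 0.190 FPKM, with 74.9% of its exon bases on Tomm40l of the opposite strand, Nr1i2 at 0.00600 to 0.208, Nr1h4 at 0.0140 to 0.0990 and Hnf4a at 0 to 0.0140. Hnf4g was at 0.0260, 0.0540, 0.0610 and 0.0430 FPKM in Nr2f2 f/f and 0.101, 0.0910, 0.0720 and 0.0900 FPKM in Nr2f2 d/d, about 4.3 to 12.5 and 16.4 to 21.5 fragments. The groups did not overlap (means 0.0460 ± 0.0153 and 0.0885 ± 0.0121 FPKM, SD, n = 4 each), which in itself fixes the exact permutation p at 0.0286, two-sided. Fitted without the filter on low values, Hnf4g had an adjusted p of 0.0881 in limma. Of 8 liver and intestine markers, Cdx2 was at 0 in all libraries and Alb, Apoa1, Serpina1a and Fabp2 did not exceed 0.118 FPKM, while Ttr was at 0.292 to 3.04, Apoa2 at 0.295 to 1.01 and Vil1 at 0.250 to 0.956 FPKM.

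All 4 receptors linked to the circadian clock had log2 fold changes below 0. Nr1d2 (REV-ERB beta), a repressor of the clock, was at 12.0, 20.5, 10.5 and 10.3 FPKM in Nr2f2 f/f and 9.43, 10.9, 7.81 and 11.3 FPKM in Nr2f2 d/d (-0.37, limma adjusted p = 0.367). Nr1d1 (REV-ERB alpha) was at 6.38, 12.7, 4.86 and 4.96 FPKM and at 4.42, 7.38, 4.73 and 8.16 FPKM (-0.15). Control replicate 2 was the highest library for both, and without it the values were -0.15 and 0.14. Rora was at 0.869 to 2.58 FPKM over the 8 libraries (-0.35, and -0.58 to -0.21 with 1 library left out). Rorb was at 1.88 to 2.99 FPKM in Nr2f2 f/f and within 2.10 to 2.16 in Nr2f2 d/d (-0.18, and -0.29 to -0.10 with 1 library left out), where its coefficient of variation of 1.21% was the lowest of any member above 0.

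Of 14 clock genes tested, 0 passed the adjusted threshold, with 10 below 0 and a median of -0.11. Without control replicate 2, 8 were below 0, the median was -0.02 and Per2 passed (limma adjusted p = 0.0321), and without Nr2f2 d/d replicate 4, 11 were below 0, the median was -0.21 and Bhlhe40 passed (adjusted p = 0.0395). Bhlhe40, a repressor of the clock, came nearest, at 5.44, 4.82, 9.05 and 8.27 FPKM in Nr2f2 f/f and 20.2, 14.3, 20.9 and 11.3 FPKM in Nr2f2 d/d, with groups that did not overlap (log2 fold change 1.22, SE 0.256; limma adjusted p = 0.0501). Per2 was at 3.87 ± 0.935 and 5.92 ± 0.758 FPKM and Npas2 at 13.2 ± 0.937 and 8.47 ± 3.94 FPKM, where Nr2f2 d/d replicate 3 was at 2.71 FPKM (SD, n = 4 each).

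**Figure D4:**
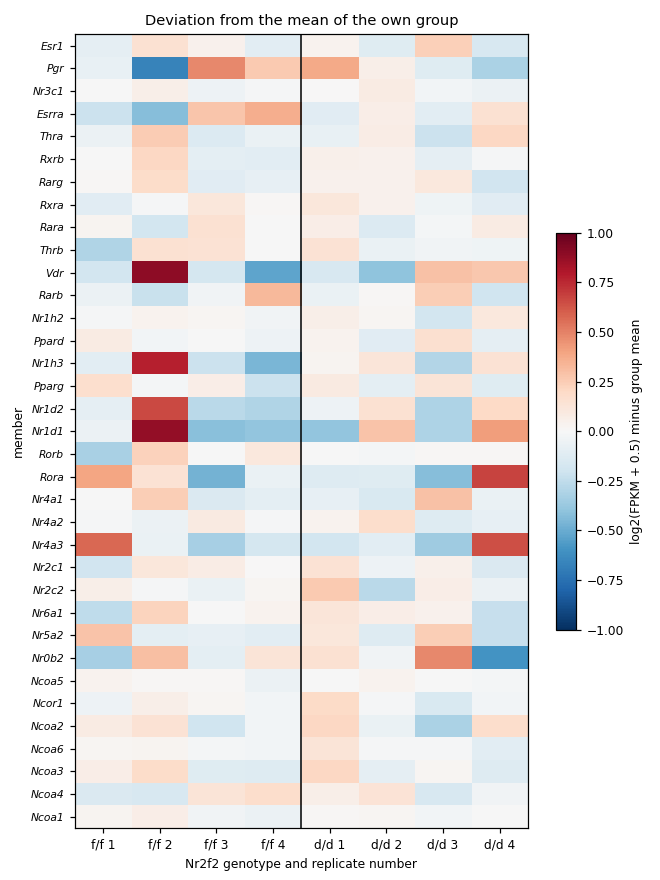
Deviation of log2(FPKM + 0.5) from the mean of the library's own group for the 35 members tested, by library. Control replicate 2 (f/f 2) is high for Vdr, Nr1h3, Nr1d2 and Nr1d1 and low for Pgr.

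The NR4A receptors, which are induced early by growth signals, had log2 fold changes near 0. Nr4a1 was at 3.41 to 4.64 FPKM in Nr2f2 f/f and 3.56 to 5.02 in Nr2f2 d/d (log2 fold change 0.06), Nr4a2 at 1.94 to 2.20 and 1.74 to 2.27 (-0.05), and Nr4a3 at 0.311 to 1.02 and 0.297 to 1.09 (-0.00). The groups overlapped for all 3. Of 13 immediate-early genes, 0 passed the adjusted threshold and 1, Egr1, was lower at the study threshold. The paper also reports Egr1 as lower in Nr2f2 d/d. The list median was 0.01, and -0.07 to 0.08 with 1 library left out. The smallest p were those of the zinc finger factor Egr1 at 15.6 ± 3.46 and 9.10 ± 2.63 FPKM, the stress factor Atf3 at 2.92 ± 0.554 and 4.07 ± 0.631 FPKM, and Ier2 at 29.8 ± 3.38 and 26.0 ± 2.47 FPKM (SD, n = 4 each).

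Of the remaining orphan receptors, Nr0b1, Nr5a2 and Nr2c2 were wholly lower in Nr2f2 d/d. Nr0b1 (DAX1) lacks the usual DNA-binding domain and represses NR5A receptors and other partners. It was at 0.837, 0.163, 0.679 and 0.380 FPKM in Nr2f2 f/f and at 0.0270, 0, 0.0420 and 0.00600 FPKM in Nr2f2 d/d, about 95.4, 18.1, 95.5 and 42.2 fragments against 3.0, 0, 7.0 and 1.0. Every control was above every Nr2f2 d/d library, and a level of 3 fragments corresponds to 0.0179 to 0.0270 FPKM. The means of 0.515 ± 0.302 and 0.0188 ± 0.0193 FPKM (SD, n = 4 each) had a ratio of 27.5 (exact permutation p = 0.0286, two-sided, the smallest the design allows). The size of the ratio is poorly fixed: it rests on 11 fragments in Nr2f2 d/d (exact Poisson 95% interval 5.49 to 19.7, counting error only) against 251 in Nr2f2 f/f, and was 20.6 to 46.8 with 1 library left out, the highest without Nr2f2 d/d replicate 3. Its mean over all libraries, 0.267 FPKM, was under the level at which genes were tested. Fitted without that filter it had an adjusted p of 0.0747 in limma, and with 0.1 in place of 0.5 added, a setting chosen after its values were seen, a log2 fold change of -2.23 (SE 0.376; adjusted p = 0.0351). Nr0b1 lies at chrX:86191764-86195947 on GRCm38, and its exons share no bases with another gene.

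Nr5a2 (LRH-1), an NR5A receptor needed in the uterus for decidualization, was at 1.92, 1.35, 1.37 and 1.34 FPKM in Nr2f2 f/f and 1.01, 0.778, 1.16 and 0.688 FPKM in Nr2f2 d/d. The groups did not overlap, and 3 of the 4 controls were close together with replicate 1 above them. The means were 1.50 ± 0.286 and 0.910 ± 0.216 FPKM (SD, n = 4 each), or 60.8% of the control level in Nr2f2 d/d, with a log2 fold change of -0.50 (SE 0.149; limma adjusted p = 0.110). It met the study threshold, but not without control replicate 1 or without Nr2f2 d/d replicate 2 or 4, and its log2 fold change was -0.59 to -0.41 with 1 library left out. Nr5a2 lies at chr1:136842571-136960448, and the copy of AGGTCA shown above lies before the upstream of its RefSeq starts.

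Nr2c2 (TR4), an orphan receptor that binds repeats of AGGTCA, was at 3.16, 2.99, 2.86 and 3.07 FPKM in Nr2f2 f/f and 2.53, 1.60, 2.14 and 1.93 FPKM in Nr2f2 d/d. All 4 Nr2f2 d/d libraries lay below every control, and the controls were close together. The means were 3.02 ± 0.125 and 2.05 ± 0.389 FPKM (SD, n = 4 each), with a log2 fold change of -0.48 (SE 0.118; limma adjusted p = 0.0737), on this scale just under the fold of the study threshold. The ratio of the means was 1.47, above that fold, and with 0.1 in place of 0.5 added Nr2c2 met the threshold. The unadjusted p stayed under 0.05 whichever of the 8 libraries was left out, with log2 fold changes of -0.56 to -0.39. Of the exon bases of Nr2c2 (chr6:92091390-92174294), 31.2% overlap Mrps25 and a second gene on the opposite strand, which reads without strand cannot separate. For Mrps25 the log2 fold change was 0.09 (limma adjusted p = 0.756). The paralog Nr2c1 (TR2) was at 6.17 to 7.76 FPKM in Nr2f2 f/f and 6.47 to 8.03 in Nr2f2 d/d (log2 fold change 0.02).

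Nr0b2 (SHP), the second receptor without a DNA-binding domain, was at 0.197, 0.583, 0.320 and 0.457 FPKM in Nr2f2 f/f and 0.859, 0.689, 1.20 and 0.309 FPKM in Nr2f2 d/d. In 3 Nr2f2 d/d libraries it was above every control and in replicate 4 it was below 3 of them (log2 fold change 0.48, SE 0.242; limma adjusted p = 0.302). Its control mean of 0.389 FPKM was under the level at which genes were tested, which it reached through its Nr2f2 d/d mean of 0.763. Nr6a1, the germ cell nuclear factor, was at 1.73 to 2.61 and 2.06 to 2.78 FPKM (0.18). Nr5a1 (SF-1), the steroidogenic NR5A receptor of the gonads and adrenal, was at 0 to 0.0360 FPKM in Nr2f2 f/f and 0.0240 to 0.0870 in Nr2f2 d/d, at most 22.8 fragments. Nr2e3, a photoreceptor gene, was above 0 in 1 library only, at 0.00800 FPKM, and Nr2e1 was at 0 in all 8, where 3 fragments would be 0.00872 to 0.0132 FPKM.

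Of 4 NR5A target and steroidogenic genes tested, 1 passed. Scarb1, the receptor for high-density lipoprotein, was at 42.0, 43.5, 32.6 and 31.4 FPKM in Nr2f2 f/f and 16.5, 14.7, 21.9 and 18.1 FPKM in Nr2f2 d/d. The groups were far apart (log2 fold change -1.05, SE 0.152; limma adjusted p = 0.0192), and the call was lost without control replicate 1 and without Nr2f2 d/d replicate 1 or 2 (adjusted p up to 0.0660). Star, which moves cholesterol into mitochondria, was at 2.31 ± 0.109 and 3.20 ± 0.888 FPKM, and the inhibin subunit Inha at 4.17 ± 0.863 and 3.50 ± 0.286 FPKM (SD, n = 4 each), with overlapping groups. Star and Inha are also ovary markers, of which Cyp11a1 and Amh were at 0.116 to 0.523 FPKM and the other 5 at 0.0250 FPKM or less in every library.

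The coregulators shared a direction. All 7 had log2 fold changes below 0, from -0.30 to -0.06, with a median of -0.14 against -0.02 over all genes, and all 7 stayed below 0 under every alternative processing. None passed the adjusted threshold (limma). Ncoa1 (SRC-1), a coactivator of steroid receptors, was at 5.42, 5.60, 5.18 and 5.10 FPKM in Nr2f2 f/f and 4.56, 4.57, 4.40 and 4.50 FPKM in Nr2f2 d/d. The groups did not overlap. Means of 5.32 ± 0.226 and 4.51 ± 0.0770 FPKM (SD, n = 4 each), 84.7% of the control level, gave a log2 fold change of -0.22 (SE 0.0646; limma adjusted p = 0.113).

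Ncoa5, a coregulator of the estrogen receptors, was at 21.4, 21.1, 21.0 and 20.0 FPKM in Nr2f2 f/f and 18.8, 19.4, 18.8 and 18.6 FPKM in Nr2f2 d/d. The groups did not overlap, and the means of 20.9 ± 0.602 and 18.9 ± 0.342 FPKM (SD, n = 4 each) gave a log2 fold change of -0.14 (SE 0.0538; limma adjusted p = 0.189). Ncoa2 (SRC-2), a coactivator of PGR in the uterus, was at 8.62 to 11.1 FPKM in Nr2f2 f/f and 6.35 to 9.33 in Nr2f2 d/d (-0.30, and -0.36 to -0.19 with 1 library left out). Ncoa3 (SRC-3) was at 7.07 to 8.89 and 6.59 to 8.45 FPKM (-0.09), Ncoa4, better known as the receptor of ferritin turnover, at 5.65 to 7.27 and 5.39 to 6.72 FPKM (-0.06), and Ncoa6 at 8.15 to 8.48 and 7.35 to 8.76 FPKM (-0.06). The groups overlapped for these 4. Ncor1, the corepressor, was at 14.7 to 15.9 FPKM and 12.4 to 15.8 FPKM (-0.14), and its log2 ratio to Ncoa1 differed by 0.08 between the groups (exact permutation p = 0.371, two-sided, adjusted over 4 pairs 0.495).

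In a further list of receptors and coregulators, Kat2a fell in Nr2f2 d/d. Of 26 tested, 16 were below 0 with a median of -0.13, and 1 passed the adjusted threshold. Kat2a (GCN5), a histone acetyltransferase, was at 28.1, 24.8, 27.1 and 24.5 FPKM in Nr2f2 f/f and 20.6, 20.4, 21.3 and 19.9 FPKM in Nr2f2 d/d. The groups did not overlap (log2 fold change -0.34, SE 0.0660; limma adjusted p = 0.0415), but when 1 library was left out the call was kept only without control replicate 2 (adjusted p up to 0.132). Med1, the mediator subunit that contacts nuclear receptors, was wholly lower at 9.89 ± 0.572 and 8.37 ± 0.379 FPKM (SD, n = 4 each; adjusted p = 0.116).

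**Figure D5:**
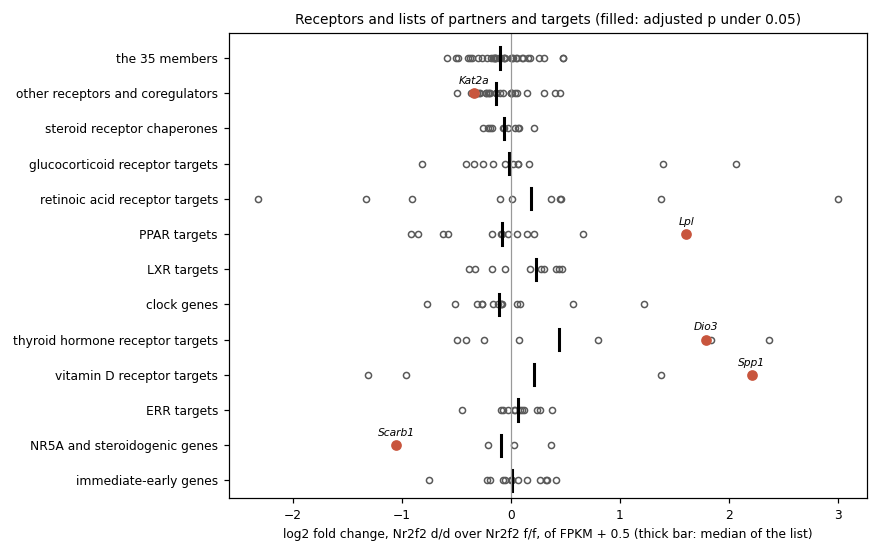
Log2 fold change of FPKM + 0.5, Nr2f2 d/d over Nr2f2 f/f, for the 35 members tested and for each tested gene of 12 lists of partners and targets, with a thick bar for the median of a list. Filled points passed an adjusted p of 0.05: 0 of the 35 members, and Kat2a, Lpl, Dio3, Spp1 and Scarb1 of the lists.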

How the data were processed

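RNA-seq libraries of whole uterus at GD3.5 were grouped by the sample labels into 4 Nr2f2 f/f and 4 Nr2f2 d/d, numbered as in the titles. Per the paper's methods and the submitters' processing notes, the authors filtered reads of 76 bases by quality, trimmed them with cutadapt 1.12, mapped the pairs to mm10 by STAR 2.5.2b and counted fragments with featureCounts 1.5.0-p1. The deposited values are FPKM made by the authors, and the notes also list Cufflinks 2.0.2. The FPKM formula, gene annotation and strand setting are not given in the sources used here. The study's count test was not used, since only FPKM were analysed. A change in very abundant transcripts shifts all other FPKM of a library.

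From the FPKM, log2(FPKM + 0.5) was fitted by limma 3.58.1 (R 4.3.3) with a trended eBayes and two-sided tests for 14323 genes, those averaging 0.5 FPKM or more, with Benjamini-Hochberg adjustment over all of them. The fit was tested on simulated data. Single members and within-library log2 ratios were compared by exact two-sided permutation tests (scipy 1.17.1, Python 3.11.15). Library totals were recovered from genes of 1 exon of at most 150 bases, whose values were within 0.05 of whole fragments in 87.9% to 91.1% of cases (medians of 3.59% to 4.43% were found at other totals). The totals carry that uncertainty into the fragment numbers, which cover counting error only. Gene positions and overlaps are from GENCODE release M21 and promoters from RefSeq, both on the build of mm10.

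The members, the lists of partners and targets and the marker lists were chosen with earlier results of these data known, and the list genes were written from general knowledge. Full statistics were given for members that met a threshold, whose groups did not overlap, or that are ovarian steroid receptors, and of each list the 3 genes with the smallest p were named, except for genes that are not reported here. Values per library of Esrra, Thrb, Rara, Vdr, Nr1h3, Nr1d1, Nr1d2, Nr0b2 and of Crabp2 and Bhlhe40, and the overlapping gene Mrps25, were added after values were seen. Nr3c1 to Nr3c2 was not compared as a ratio, since Nr3c2 is under 0.5 FPKM. The alternatives were 0.1 or 1 added, no filter or one at 1 FPKM, quantile normalization, median-ratio scaling, an untrended eBayes, a replicate block and each library left out.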

Additional observations from a re-analysis of the deposited data

Results flagged for a closer look

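In 4 members a single library lay far from the other 3 of its group, by the ratio of its gap to the range of the group (Dixon's 95% limit). Among the 78 groups of values examined, chance alone gives about 1 in 20. Nr5a2 was at 1.92 FPKM in Nr2f2 f/f replicate 1 against 1.34 to 1.37 in the other controls. Vdr was at 2.73 FPKM in Nr2f2 f/f replicate 2 against 0.709 to 1.04, and Nr1d2 was at 20.5 FPKM in the same library against 10.3 to 12.0. Thrb was at 2.33 FPKM in Nr2f2 d/d replicate 1 against 1.95 to 2.01.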

How the results depend on the processing

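The number of members with an adjusted p under 0.05 was 0 in every alternative, each library left out included, except 1, Nr0b1, with no filter and 0.1 added, a setting chosen after seeing the data. The number at the study threshold, 1, was 3 with 0.1 added (Nr1h3, Nr2c2 and Nr5a2), 0 with 1 added, 2 with no filter, 3 with no filter and 0.1 added, and 0 to 3 with a library left out. It was 0 when Nr2f2 f/f replicate 1 or Nr2f2 d/d replicate 2 was left out, and 3 without Nr2f2 f/f replicate 3. The 5 members whose groups did not overlap became 6 to 8 with a library left out, 8 without Nr2f2 d/d replicate 4 or Nr2f2 f/f replicate 3, where fewer values have to be separated. The log2 ratio of Esr1 to Pgr, -0.17, ranged from -0.32 to 0.10, the latter without Nr2f2 f/f replicate 2. The log2 fold changes of Esr1, Pgr, Nr2c2, Nr5a2, Ncoa1, Ncoa5 and Rxrb kept their direction in all 16 alternatives. Exact tests of Nr0b1, Hnf4g and Rxrg gave 0.0571 with a library left out, the smallest p that 7 libraries allow. The replicate numbers do not pair the samples: deviations of same-numbered samples correlated at -0.204, -0.172, 0.045 and -0.040, and not every sample correlated best with its own number. The deposited columns number the samples otherwise (the controls 1, 2, 3 and 5, the others 1, 3, 4 and 5), and their 3 shared numbers correlated at -0.204, 0.149 and -0.040, so these do not pair them either. The block used the numbers of the titles. With the replicate block, 2 members (Nr1h3 and Nr5a2) met the study threshold, 0 had an adjusted p under 0.05, and the calls over all genes went from 375 to 1. The causes of these shifts were not tested. At these depths, levels under 3 fragments, as for Nr0b1 in Nr2f2 d/d replicates 2 and 4, are not resolved.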

Other observations

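Some retinoid and vitamin D genes differed widely within the controls. Cyp26a1, which degrades retinoic acid, was at 242 and 247 FPKM in Nr2f2 f/f replicates 1 and 2 and at 10.1 and 12.2 FPKM in replicates 3 and 4, while the Nr2f2 d/d libraries were at 7.30, 7.81, 2.91 and 58.9 FPKM. Cyp26c1, a related enzyme, was at 8.90, 6.68, 0.346 and 0.950 FPKM in the same controls, and the calcium channel gene Trpv6 at 27.0, 37.0, 3.88 and 3.42 FPKM. Among the receptors, Rara in these 4 controls was at 7.14, 6.10, 7.83 and 6.94 FPKM, Rarg at 15.1, 17.1, 13.8 and 14.1, Rxrb at 18.8, 21.9, 17.6 and 17.5, and Vdr at 1.03, 2.73, 1.04 and 0.709. The 3 genes were singled out after their values were seen, and none passed the comparison of the groups (limma adjusted p = 0.348, 0.390 and 0.523).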
